A study of Mus musculus with 4 samples.

Results

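The Nrf2 oxidant defence genes are 10 mouse genes that encode the transcription factor Nrf2, its inhibitor Keap1 and the enzymes and carriers by which Nrf2 is known to protect cells from oxidants and electrophiles. They were taken by gene symbol, and every probe of a gene that carried a RefSeq accession of it was used. All 10 genes had a probe, 11 probes in total, among 25694 genes tested. RNA came from the middle ears of male BALB/c mice aged 6 to 10 weeks, which inhaled diesel exhaust particles (DEPs) daily for 1 h over the first 5 days. The ears were taken on day 14. The control ears are labelled as untreated, and the study used 9 mice. By the source names, each of 4 Agilent arrays held DEP ear RNA in the dye Cy5 and control ear RNA in the dye Cy3. The treatment labels do not settle this, since both treatments are listed under the Cy5 channel. The number of mice behind an extract is not given in the sources used here, so the spread between arrays may be partly technical. No array had its dyes exchanged, so that the dye and the exposure cannot be told apart.

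Under unstressed conditions Keap1 holds Nrf2 for ubiquitination by a Cul3 ligase, and Nrf2 is degraded. Electrophiles and oxidants, among them the quinones carried on DEPs, modify cysteines of Keap1. Nrf2 then accumulates, pairs with a small Maf protein and binds antioxidant response elements. In airway epithelium and macrophages this response is known for raising glutathione synthesis, thioredoxin reduction, quinone reduction and heme breakdown. Bach1 occupies the same elements as a repressor and leaves them when it binds heme.

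The core of that element was searched as the letters TGACNNNGC, where N is any base, on both strands of the RefSeq promoter windows of GRCm38.p6. A window covers 250 bases before a transcription start and 50 after it. It is a match of letters and not a measured site. Of the members, 8 had a window and 4 of these had a match, in 4 of 10 windows, against 12.4% of all 32851 windows. The matches lay in Nfe2l2, Gclm, Txnrd1 and Srxn1, and none overlapped the AP-1 motif TGACTCA. They are shown because this element is the one through which Nrf2 is known to act. Letters in capitals mark the match, which reads as the reverse complement of the core in Gclm, Txnrd1 and Srxn1. The Nfe2l2 stretch is chr2:75704664-75704913 on the minus strand, with the match from -240 to -232 of the start. The Gclm stretch is chr3:122245307-122245556 on the plus strand, with the match from -134 to -126. That of Txnrd1 is chr10:82858956-82859205 on the plus strand, with the match from -92 to -84, and it precedes 1 of 3 starts listed for that gene. In Srxn1 the match lay after the start, from 29 to 37, and the stretch is chr2:152105542-152105570 on the plus strand.
Nfe2l2: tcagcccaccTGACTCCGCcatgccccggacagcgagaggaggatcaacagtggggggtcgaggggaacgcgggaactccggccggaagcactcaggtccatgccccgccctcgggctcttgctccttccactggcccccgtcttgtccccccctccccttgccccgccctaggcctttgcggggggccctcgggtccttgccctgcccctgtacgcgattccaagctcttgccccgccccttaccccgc
Gclm: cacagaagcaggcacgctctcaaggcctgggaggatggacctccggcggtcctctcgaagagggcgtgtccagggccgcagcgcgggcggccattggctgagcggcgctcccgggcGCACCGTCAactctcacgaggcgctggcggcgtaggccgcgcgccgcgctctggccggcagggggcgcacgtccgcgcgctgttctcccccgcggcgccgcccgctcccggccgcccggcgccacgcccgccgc
Txnrd1: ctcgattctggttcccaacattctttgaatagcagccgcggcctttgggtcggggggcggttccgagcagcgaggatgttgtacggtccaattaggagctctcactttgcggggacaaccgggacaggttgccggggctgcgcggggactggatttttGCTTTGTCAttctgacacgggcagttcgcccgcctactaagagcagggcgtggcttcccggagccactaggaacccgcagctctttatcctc
Srxn1: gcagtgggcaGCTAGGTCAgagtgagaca

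All 11 probes were well above background in Cy5 and in Cy3 on each array, and no spot of them was flagged or saturated. Signals below are the processed signals of Feature Extraction, which are balanced between the dyes of an array but not between arrays. Their 75th percentile over probes was 1247, 914, 779 and 776 in the channel labelled DEP of arrays 1 to 4, and 1252, 921, 790 and 781 in the channel labelled control. Ratios are log2 values of DEP over control as labelled, so that a value of 1 is a 2-fold difference. This direction follows the source names and runs opposite to the one the study gives for the marker genes Chrm1, Esr1, Sos1 and Ifna1. Chrm1, which the study lists as raised by DEPs, is lower here at -1.21, although it was well above background on only some arrays. Epo was well above background on 0 arrays, and no direction is read from it. Esr1, Sos1 and Ifna1, which it lists as lowered, are higher here at 0.46, 1.06 and 0.74, although in the control channel Sos1 was well above background on 1 array and Ifna1 on 2. Cd4, also listed as lowered, is at -0.10 here, above 0 on 2 arrays and below 0 on the other 2. By quantitative PCR of middle ear tissue, the study also reports Chrm1 and Epo as raised and Esr1, Sos1, Cd4 and Ifna1 as lowered. With the channels exchanged every sign below would turn. Errors of single genes are the SD between arrays and the standard error (SE) of limma's moderated test, with adjusted p over all probes.

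As a group, the 10 genes differed little between the channels. Heme oxygenase 1 (Hmox1) had the largest mean ratio, 0.58, and thioredoxin reductase 1 (Txnrd1) the lowest, -0.24. By mean ratio 7 genes were above 0 and 3 below it, beside 9974 above and 8367 below among the genes well above background in each channel of every array. Under other normalizations between 5 (normexp and loess) and 9 (normexp and median centring) of the members were above 0. Over the 10 genes the median was 0.08, against 0.03 over these 18341 genes. By array, the median of the members was -0.04, 0.11, 0.16 and -0.11, and 4, 6, 6 and 4 of them were above 0 on arrays 1 to 4.

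With limma's moderated test of the deposited ratios, no member passed a limit on fold or p. The mean ratio reached 2-fold for 0 of 10 members, a limit reached by 3.15% of the genes measured as fully. An unadjusted p under 0.05 from limma was found for 0 of 10 members, against 12.6% of those genes, made up of 6.55% higher and 6.06% lower. An adjusted p under 0.05 was found for 0 members and for 0% of those genes, and without moderation of the variance 1 member, Txnrd1, had an unadjusted p under 0.05, beside 15.5% of all genes, and 0 an adjusted one. The 4 DEP signals and the 4 control signals were apart from each other for 0 members, against 1.43% of genes. The ratio was above 0 on all 4 arrays for 1 member, Hmox1 (background 15.4%), and below 0 on all 4 for 2, Keap1 and Txnrd1 (background 10.7%). The 95% interval of the mean ratio held 0 for all 10 genes. It left out a 2-fold difference in either direction for 8 of them, all but Hmox1 and Osgin1.

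**Figure D1:**
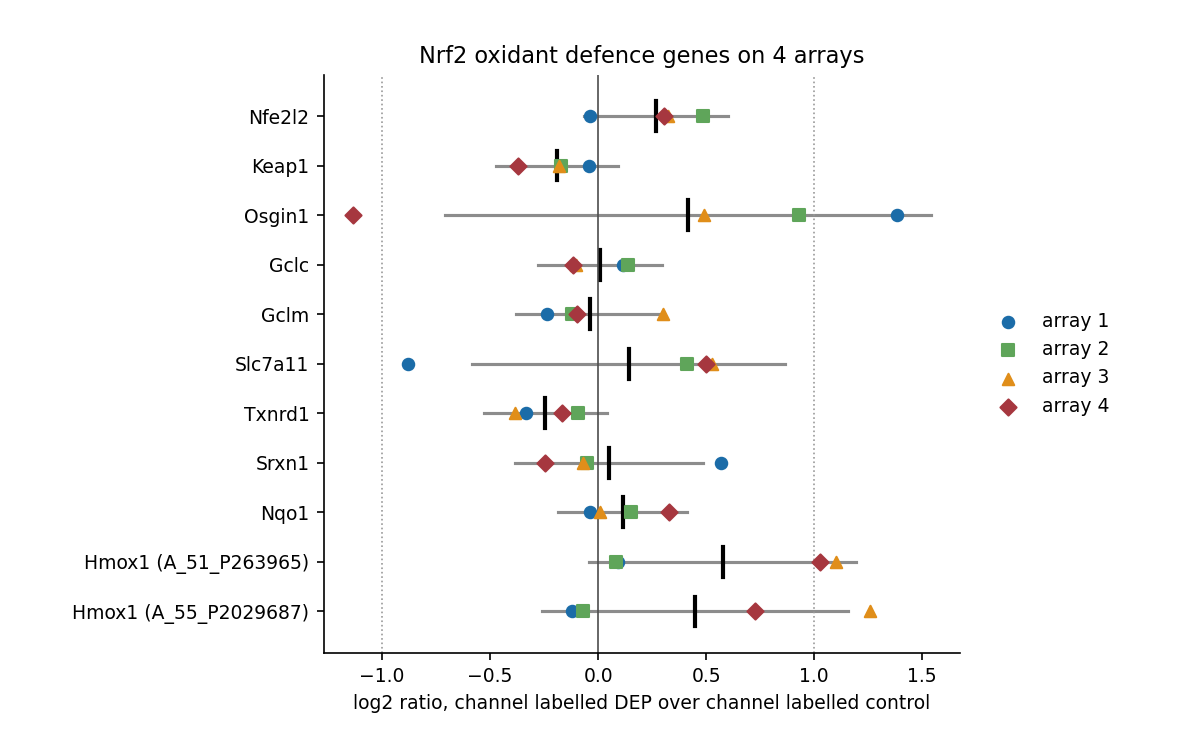
Log2 ratio of DEP over control as labelled (x axis) for each of the 11 probes (rows). Symbols are the 4 arrays, the black bar is their mean and the grey line its 95% interval from limma's moderated test, and dotted lines mark 2-fold. Hmox1 splits into arrays near 0 and arrays near 1, while the ratios of Osgin1 range from -1.13 to 1.39.

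**Figure D2:**
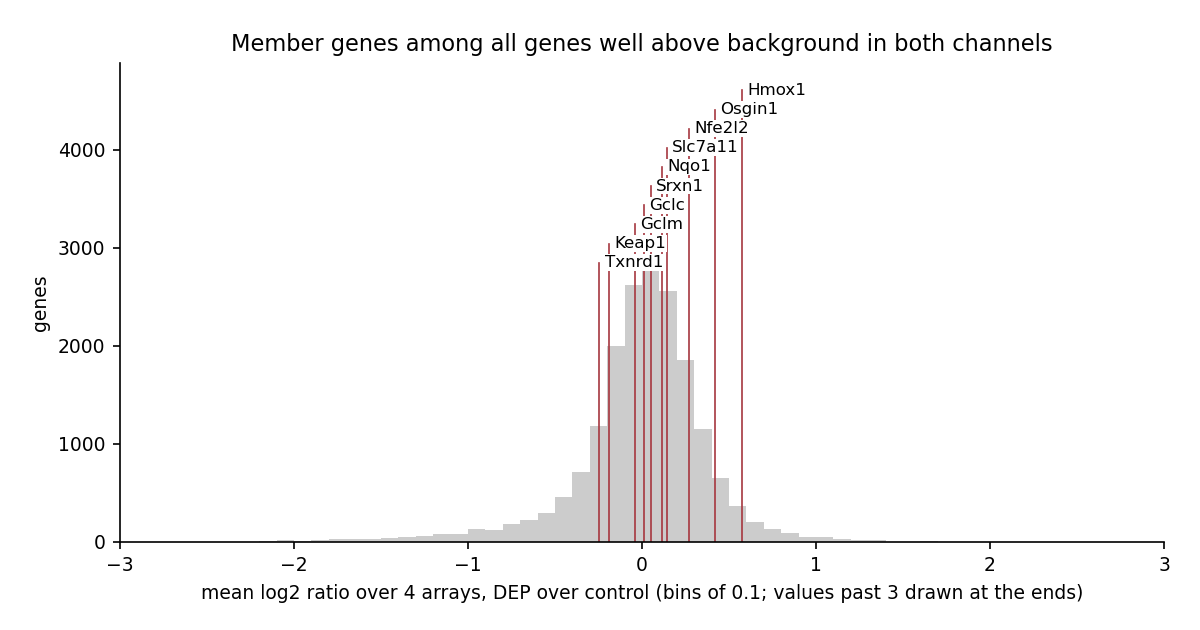
Number of genes (y axis) by mean log2 ratio over the arrays (x axis, bins of 0.1) for the 18341 genes well above background in each channel of every array, in grey. Red lines mark the 10 members by their brightest probe, all of which lie between -0.24 and 0.58.

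Among the regulators, Nfe2l2, which encodes Nrf2 itself, gave signals of 3549, 3127, 2419 and 2896 in the channel labelled DEP of arrays 1 to 4 and 3645, 2232, 1936 and 2344 in the channel labelled control. The DEP signal was the higher of the pair on arrays 2, 3 and 4 and slightly lower on array 1, and the groups overlap. The mean ratio was 0.27 ± 0.22 (SD, n = 4 arrays), with an SE of 0.13, a 95% interval of -0.06 to 0.60 and an adjusted p = 0.333. With normexp and median centring it was 0.60 with an adjusted p = 0.0473, a setting that moved the median of the genes measured as fully to 0.18 and gave 1545 of 25694 genes an adjusted p under 0.05. Over the remaining settings the adjusted p ranged from 0.252 to 0.653.

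Keap1, the adaptor that presents Nrf2 to the ubiquitin ligase, read 4735, 3022, 2855 and 2585 in the DEP channel and 4875, 3400, 3239 and 3338 in the control channel. The DEP signal was the lower of each pair, by little on array 1 and most on array 4. Its mean ratio of -0.19 ± 0.13 (SE 0.11, adjusted p = 0.399) had an interval of -0.47 to 0.09. An exact sign-flip permutation test of the 4 ratios, two-sided, gave p = 0.125, the smallest it can give.

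Osgin1, a growth inhibitor induced by oxidative stress, read 2014, 948, 665 and 475 in the DEP channel against 771, 498, 474 and 1043 in the control channel. The ratio was past 2-fold on array 1 in one direction, at 1.39, and past it on array 4 in the other, at -1.13, with 0.93 and 0.49 on arrays 2 and 3. The mean of 0.42 ± 1.10 (SE 0.44, adjusted p = 0.623) was smaller than the SD, and it ranged from 0.09 without array 1 to 0.93 without array 4. Of the genes measured as fully, 94.3% had a smaller SD between arrays than Osgin1.

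Glutathione synthesis starts with glutamate-cysteine ligase, of which Gclc is the catalytic and Gclm the modifier subunit, and depends on cystine brought in by Slc7a11. Gclc read 3173, 2421, 1931 and 2024 in the DEP channel and 2926, 2203, 2074 and 2192 in the control channel. It was slightly above control on arrays 1 and 2 and slightly below on arrays 3 and 4. The mean ratio was 0.01 ± 0.14 (SD, n = 4; SE 0.11, adjusted p = 0.969), with an interval of -0.28 to 0.29. With normexp and median centring it was 0.25 with an adjusted p = 0.106.

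Gclm read 718, 572, 472 and 484 against 845, 622, 383 and 518. It was above control on array 3 alone, and the groups overlap. Its mean ratio was -0.04 ± 0.23 (SE 0.13, adjusted p = 0.892), with an interval of -0.38 to 0.30. For both subunits a 2-fold difference thus lies outside the interval.

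Slc7a11, the transporter subunit of the cystine-glutamate exchanger, gave low signals, at 71.6, 101, 67.0 and 66.7 in the DEP channel and 132, 76.0, 46.4 and 47.2 in the control channel. The lowest signal called well above background in the control channel was 23.3, 20.8, 36.5 and 33.2 on arrays 1 to 4. The control signals of Slc7a11 on arrays 3 and 4 were thus near that floor. Ratios of 0.41, 0.53 and 0.50 on arrays 2, 3 and 4 stand beside -0.88 on array 1. The mean was 0.14 ± 0.68 (SE 0.28, adjusted p = 0.803), and without array 1 it was 0.48, with an adjusted p = 0.215. Without array 2, 3 or 4 it was 0.051, 0.012 or 0.021, and with normexp and loess it was 0.0042. Of the 10 marker lists of other tissues and cells, 8 had their lowest median on the same array. The lowest of these was that of 8 astrocyte markers, with medians of -2.37, -0.85, -0.07 and 0.12 on arrays 1 to 4. All 8 markers were well above background in each channel, and their summed signal ranged from 45602 to 54987 in the DEP channel and from 39205 to 233384 in the control channel. The part of any of these tissues in the Slc7a11 ratio was not tested. In whole tissue, fewer cells of a type and less RNA per cell cannot be told apart.

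Thioredoxin reductase 1 (Txnrd1) keeps thioredoxin reduced with NADPH, and sulfiredoxin (Srxn1) repairs overoxidized peroxiredoxins. Txnrd1 read 4001, 3215, 2815 and 2570 in the DEP channel and 5041, 3430, 3672 and 2885 in the control channel. The DEP signal was the lower of each pair, although the groups overlap. Its mean ratio was -0.24 ± 0.14 (SD, n = 4; SE 0.11, adjusted p = 0.314), with an interval of -0.53 to 0.04, and the exact sign-flip test again gave its smallest p of 0.125. With normexp correction and each array centred on its median the signs of Txnrd1 and Keap1 turned, to 0.050 and 0.20.

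Srxn1 read 9206, 4214, 3465 and 3124 against 6207, 4372, 3633 and 3703. It was clearly above control on array 1 alone, at a ratio of 0.57, and at or below control on the others, at -0.05, -0.07 and -0.25. The mean was 0.05 ± 0.36 (SE 0.17, adjusted p = 0.886), and -0.12 without array 1. With normexp and median centring it was 0.33.

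Nqo1, which reduces quinones by 2 electrons and is a widely used reporter of Nrf2 activity, read 343, 321, 230 and 297 in the DEP channel and 352, 288, 228 and 237 in the control channel. Both channels lay close together on arrays 1 and 3, and the DEP signal was somewhat higher on array 4. The mean ratio was 0.11 ± 0.16 (SD, n = 4; SE 0.12, adjusted p = 0.617), with an interval of -0.19 to 0.41. It was 0.042 without array 4 and 0.013 with normexp and loess.

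Hmox1, the inducible enzyme that opens the heme ring and frees its iron, was the member with the largest mean difference, and it was uneven between arrays. Its brighter probe (A_51_P263965) read 4891, 4222, 4180 and 4845 in the DEP channel and 4583, 3988, 1949 and 2374 in the control channel. The DEP signals are alike on the 4 arrays, and the control signals fall into a pair near them on arrays 1 and 2 and a pair at about 2-fold less on arrays 3 and 4. The second probe (A_55_P2029687) read 478, 423, 478 and 475 against 520, 443, 200 and 287, in the same pattern.

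The ratios were 0.09, 0.08, 1.10 and 1.03 for the brighter probe and -0.12, -0.07, 1.26 and 0.73 for the other. The first was thus above 0 on all 4 arrays and the second on 2 of them. Their means were 0.58 ± 0.56 (SE 0.24, adjusted p = 0.289, interval -0.04 to 1.19) and 0.45 ± 0.66 (SE 0.28, adjusted p = 0.421). A mean ratio of 0.58 corresponds to 1.49-fold. With 1 array left out, the mean of the brighter probe ranged from 0.40 without array 3 to 0.74 without array 1 or array 2.

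Since signals are not scaled between arrays, those of Hmox1 were also set against the 75th percentile of their own channel, a step chosen after its values were seen. On that log2 scale the brighter probe stood at 1.97, 2.21, 2.42 and 2.64 in the DEP channel and at 1.87, 2.11, 1.30 and 1.60 in the control channel of arrays 1 to 4. The DEP values were highest on arrays 3 and 4, and the control values were lowest on the same arrays. On this scale both channels thus differed on arrays 3 and 4. The DEP value also rose from array 1 to array 2, where the ratio did not.

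**Figure D3:**
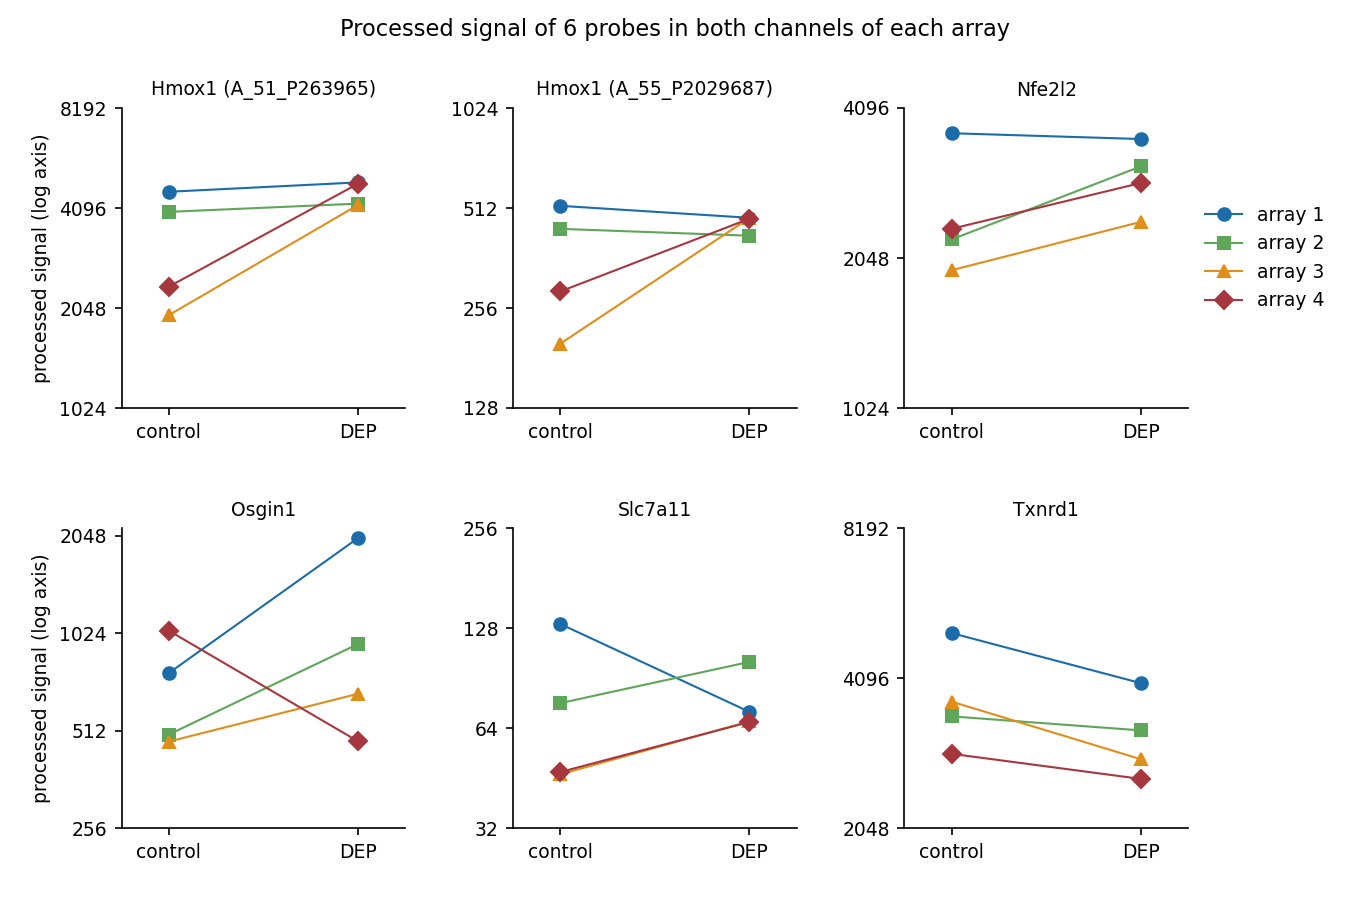
Processed signal (y axis, log scale) in the channel labelled control and the channel labelled DEP for 6 probes of 5 members. Each line joins the channels of 1 array. For both Hmox1 probes the lines of arrays 3 and 4 slope upward while those of arrays 1 and 2 are nearly flat, and for Osgin1 the line of array 4 slopes downward and the others upward.

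Markers of other cells in the extracts also differed between the arrays. Of 10 macrophage and monocyte genes tested, 8 were well above background in each channel of every array, and the median of the list was -0.17, 0.03, 0.44 and 0.60 on arrays 1 to 4. Complement C1qb, made by tissue macrophages, had ratios of -0.36, -0.12, 0.80 and 0.88, and C1qa had -0.61, -0.49, 0.47 and 0.56. Both were low on arrays 1 and 2 and high on arrays 3 and 4, as Hmox1 was. Other genes of the list differed from this pattern. Adgre1 was above 0 on all 4 arrays, at 0.71, 0.06, 0.62 and 0.73. Marco was too, at 0.77, 0.69, 0.53 and 1.01, although well above background in the control channel on only 1 array. Lysozyme (Lyz2) was below 0 on all 4 arrays, from -1.01 on array 1 to -0.0033 on array 2, and was at -0.61 on array 4. The receptor Cd14 had -0.06, -0.67, -0.77 and 0.04, and the integrin Itgam had -0.03, 0.23, -0.25 and -0.16. The log2 ratio of the summed signals was -0.32, 0.03, -0.50 and -0.23, which is not higher on arrays 3 and 4. The summed signal of the list ranged from 42720 to 66750 in the DEP channel and from 53224 to 78301 in the control channel, and 6 of its 10 genes were higher in the former by mean ratio.

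Erythroid genes, whose product hemoglobin supplies the heme, had medians of -0.78, 0.37, 0.45 and 0.23 over 8 genes, all well above background, and log2 ratios of the summed signals of -0.57, 0.35, 0.68 and 0.68. Their summed signal ranged from 272039 to 333278 in the DEP channel and from 169381 to 454262 in the control channel. Slc40a1, the iron exporter ferroportin, resembled Hmox1 more closely, with ratios of 0.03, 0.23, 0.88 and 0.86 and a mean of 0.50 ± 0.43 (SE 0.19, adjusted p = 0.272). Skeletal muscle genes, 8 in number and all well above background, followed the same split of arrays, with medians of -0.82, -0.51, 0.73 and 0.76 and summed-signal ratios of -0.70, -0.50, 0.78 and 0.62. The single genes in these comparisons were picked after their values were seen, and the part of macrophages, red cells or muscle in the Hmox1 ratio was not tested.

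Osgin1 stood beside another set of markers. Keratin 14 and keratin 5, of basal epithelial cells and keratinocytes, had ratios of 2.95, 0.57, 0.92 and -1.80 and of 2.17, 0.35, 0.08 and -1.24. Both were highest on array 1 and lowest on array 4, as Osgin1 was. So were the adhesion genes Cdh1 and Epcam, and the secretory gene Scgb1a1 at 1.86, 0.25, 0.38 and -2.53. The other 6 of the 11 genes, Krt8, Krt18, Muc5b, Foxj1, Bpifa1 and Ltf, did not share this order. Keratin 8, of simple epithelium, had ratios of -0.26, 0.19, -0.91 and -0.58, Krt18 had -0.47, 0.23, -1.18 and -0.50, and Muc5b had -1.09, -0.49, -2.51 and -1.55. Over the whole list of 11 epithelial genes the medians were -0.06, 0.27, -0.26 and -0.58, and 10 of the 11 were well above background throughout. The summed signal of that list ranged from 188760 to 283153 in the DEP channel and from 203687 to 352657 in the control channel. These single genes were also chosen after their values were seen, and the part of epithelium in the Osgin1 ratio was not tested.

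**Figure D4:**
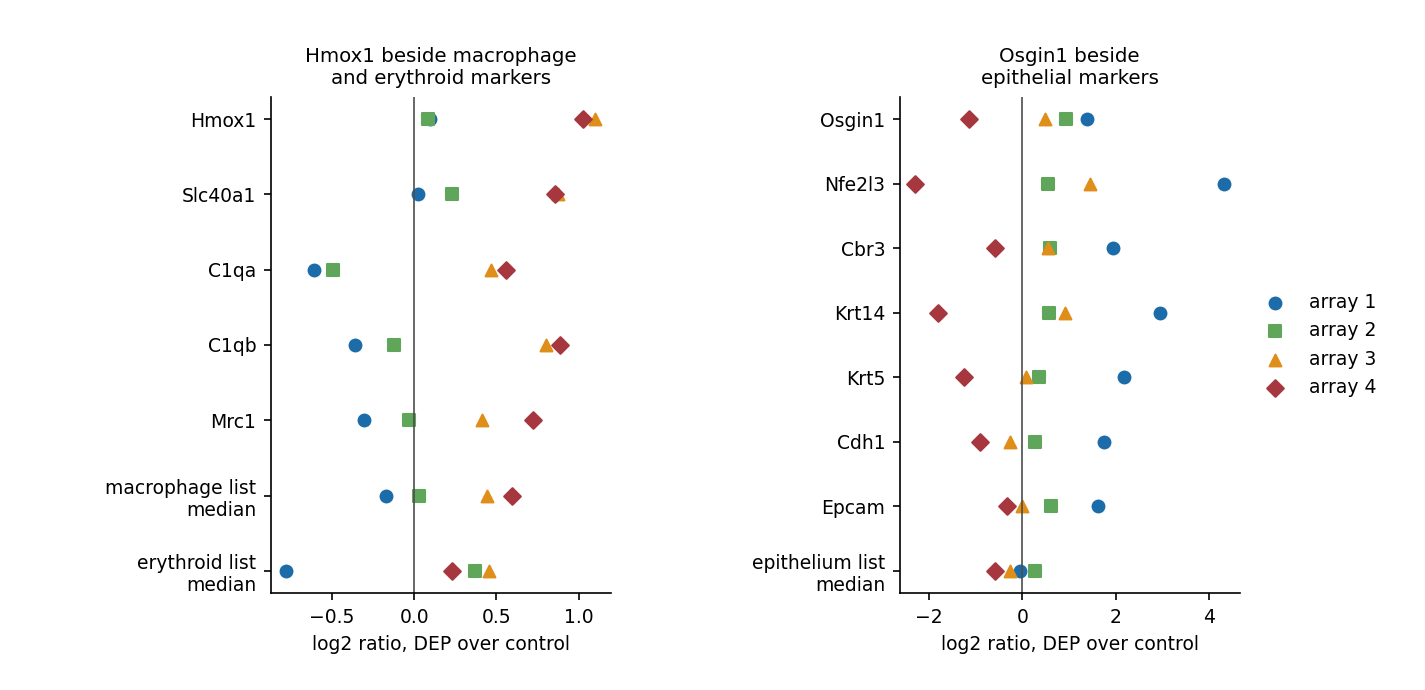
Log2 ratio of DEP over control (x axis) by array (symbols) for Hmox1, Slc40a1, macrophage markers and the medians of the macrophage and erythroid lists (left), and for Osgin1, Nfe2l3, Cbr3, epithelial markers and the median of the epithelial list (right). Single markers were chosen after their values were seen, and other genes of both lists differed from them. On the left arrays 3 and 4 lie to the right for most rows, and on the right array 1 lies farthest right and array 4 farthest left for each single gene.

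Other tissues were present in the extracts as well. Lists of bone and cartilage, skeletal muscle, inner ear, and neutrophils had 9, 8, 7 and 8 genes tested, and their median ratios over the arrays lay between 0.04 and 0.11. By array they were uneven, with -0.35, 0.11, -0.12 and 0.61 for bone and cartilage, -0.31, 0.46, 0.39 and -0.30 for inner ear, and -1.13, 0.01, 0.57 and 0.17 for neutrophils. Neurons and cerebellum had medians of -0.93 and -1.70, with 0 of 10 and 0 of 7 genes higher, and the medians of neurons by array were -2.27, -1.30, -0.75 and 0.29. Astrocytes, erythroid cells, macrophages and epithelium had medians of -0.93, 0.01, 0.20 and -0.01. Pearson's r between arrays, across probes that are not independent replicates, ranged from -0.22 for arrays 1 and 4 to 0.61 for arrays 1 and 2.

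Beyond the members, 72 other genes of the pathway were listed and 70 had a probe tested, all well above background in each channel of every array. Their median ratio was 0.08, with 43 above 0 and 27 below, beside the 9974 and 8367 given above. An unadjusted p under 0.05 from limma was found for 4 higher and 3 lower genes, against the 6.55% and 6.06% given above, and 0 passed after adjustment. These counts are close to the share found among the genes measured as fully.

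Of the 14 partners and regulators of Nrf2, 3 had an unadjusted p under 0.05 from limma, each of them higher. Among the genes measured as fully the shares were 6.55% higher and 6.06% lower. Bach1, the repressor that competes with Nrf2 for its elements, had ratios of 0.84, 0.53, 0.42 and 0.29, a mean of 0.52 ± 0.24 (SE 0.13) and an adjusted p = 0.176. The small Maf partner Mafk had 0.35, 0.46, 0.23 and 0.34, with a mean of 0.35 ± 0.09 (SE 0.10) and an adjusted p = 0.207. The related Maff had 1.71, 0.93, 0.33 and 0.43, with a mean of 0.85 ± 0.63 (SE 0.26) and an adjusted p = 0.214. Bach1, Mafk and Maff were above 0 on each array, as were 15.4% of the genes measured as fully, and none of the 3 passed after adjustment. Without array 1 the mean of Maff was 0.56, and with normexp and loess that of Mafk was 0.21. Nfe2l3, a relative of Nrf2, had the largest mean of the list, at 1.01 ± 2.73 (SE 1.06, adjusted p = 0.627). Its ratios of 4.33, 0.55, 1.44 and -2.30 gave a mean of -0.10 without array 1 and of 2.11 without array 4, and were highest and lowest on the same arrays as those of keratin 14.

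The list of quinone and carbonyl reduction held 7 genes, the reductases Nqo2, Akr1b8, Cbr1 and Cbr3 and also Aldh3a1, Ephx1 and Ugdh, which oxidize aldehydes, open epoxides and make UDP-glucuronate. By mean ratio 7 of 7 were above 0, beside 9974 genes above and 8367 below among those measured as fully. Akr1b8 and Aldh3a1 were above 0 on 2 of 4 arrays, and Cbr1, Cbr3 and Ephx1 on 3. Against 6.55% higher and 6.06% lower among the genes measured as fully, 1 of the 7 had an unadjusted p under 0.05 from limma. This was Nqo2, the relative of Nqo1 that uses dihydronicotinamide riboside in place of NADPH, with ratios of 0.19, 0.32, 0.35 and 0.40 and a mean of 0.31 ± 0.09 (SE 0.10, adjusted p = 0.228). Its second probe had a mean of 0.35 (adjusted p = 0.248). Cbr3, a carbonyl reductase, had a mean of 0.63 ± 1.03 (SE 0.41, adjusted p = 0.448) and ratios of 1.94, 0.60, 0.55 and -0.58. Its mean was 0.19 without array 1 and 1.03 without array 4.

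The lower genes were spread over other roles. Gpx2, a glutathione peroxidase of epithelia, had ratios of -0.52, 0.10, -0.82 and -0.94 and a mean of -0.55 ± 0.46 (SE 0.20, adjusted p = 0.259). Txnip, which binds and inhibits thioredoxin, had a mean of -0.40 ± 0.18 (SE 0.12, adjusted p = 0.209) and was below 0 on all 4 arrays, as was its second probe at -0.37. With normexp and median centring Txnip was at -0.034, Gpx2 at -0.29 and Tkt, with its sign turned, at 0.20. Transketolase (Tkt), of the pentose phosphate pathway, had a mean of -0.46 ± 0.38 (SE 0.18, adjusted p = 0.266) and was below 0 on all 4 arrays, nearly at 0 on array 2. Of the remaining genes of glutathione use, thioredoxins and peroxiredoxins, NADPH supply, heme and iron handling, efflux and superoxide removal, 0 had an unadjusted p under 0.05.

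**Figure D5:**
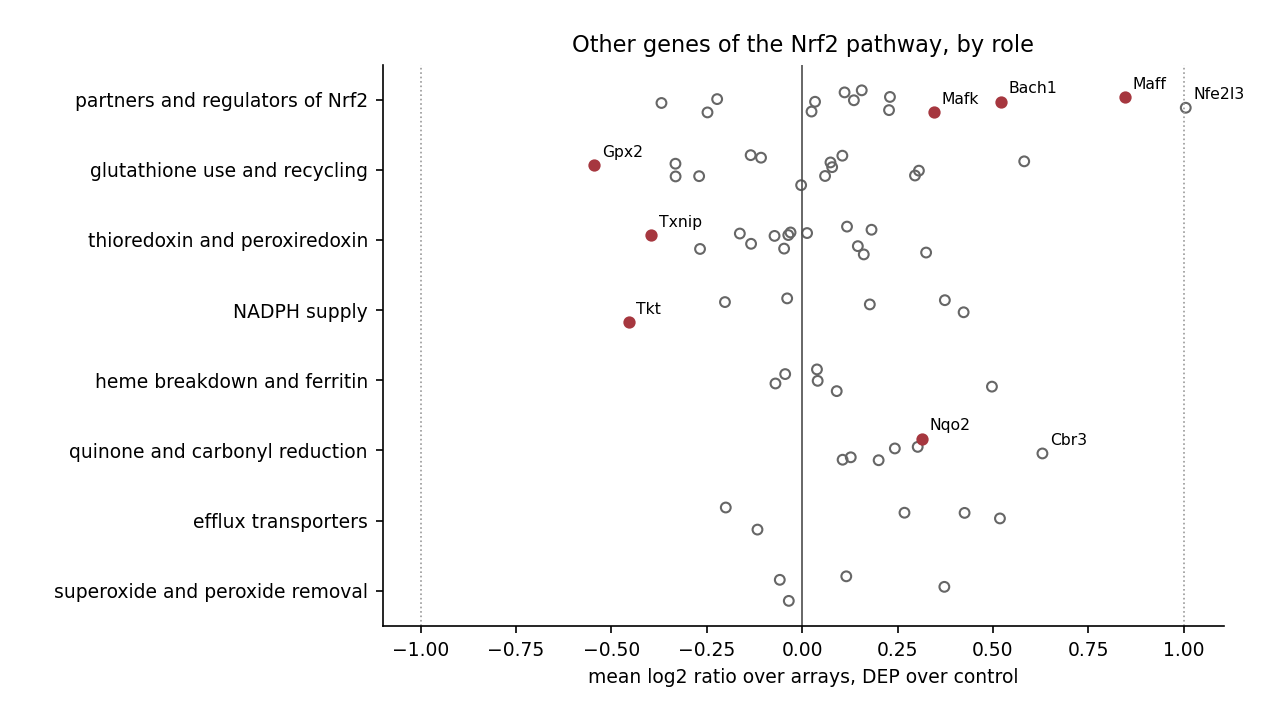
Mean log2 ratio over the arrays (x axis) of 70 other genes of the Nrf2 pathway, grouped by role (rows, with vertical scatter for legibility). Filled points have an unadjusted p under 0.05 from limma, 4 higher and 3 lower, none of which passed after adjustment. Dotted lines mark 2-fold.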

How the data were processed

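The authors hybridised labelled RNA to 2-colour Mouse (V2) 4x44K arrays and quantified the spots with Agilent Feature Extraction 10.10.1.1, as the submitters' processing notes give it. The deposited intensity is background-subtracted, detrended and dye-normalized, and the deposited ratio column is the log10 of Cy5 divided by Cy3. The authors' separate ratio table served as an alternative.

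The deposited ratios were converted to log2. Control spots, flagged spots (164 to 274 per array) and spots without a ratio were dropped, and spots of a probe were averaged. Probes were named by accession through the RefSeq table of GRCm38.p6 (27655 of 39429), used for names and promoter windows. The brightest probe stood for its gene. A probe needed 3 ratios, which left 31577. In limma 3.58.1 (R 4.3.3) an intercept was fitted with lmFit and eBayes, with Benjamini-Hochberg adjustment over all probes. The fit was first tested on simulated ratios with the SDs of the real probes. At an adjusted p under 0.05 it found 62 of 100 probes changed by a log2 ratio of 2 in size. Of 100 probes changed by 1 it found 19, and 5 of the 86 probes called had not been changed. All arrays lay on 1 slide with 1 scan, which leaves no batch to compare, and their number (4) limits precision. Normexp used median spot signals.

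The members and lists were chosen with earlier results of these data known. Pathway genes were named if measured in full with the same sign on every array and an unadjusted p under 0.05, or if among the 3 highest or 3 lowest. Of 10 marker lists, medians and counts are given. The closing section gives the effect of the alternatives, which were normexp with loess or with median centring, median centring alone, the ratio table, 2 background filters, flagged spots kept, an intensity trend, no moderation, the mean of probes and leaving out each array.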

Additional observations from a re-analysis of the deposited data

Results flagged for a closer look

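Slc7a11 on array 1, at a log2 ratio of -0.88, lay far from the 0.41 to 0.53 of the other arrays. The gap took up 0.917 of the whole range, more than 4 values should show by chance in 95% of cases. Of 21 values examined in this way 1 stood apart, where chance gives about 1 in 20.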

How the results depend on the processing

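With the deposited ratios centred on the median, the ratio table, the background filters, flagged spots kept or the mean of probes, 0 members had an unadjusted p under 0.05, 0 were past 2-fold and the median stayed within 0.06 to 0.08. The number of members with an unadjusted p under 0.05, 0 beside 18.7% of all genes, was 3 after normexp plus loess (Nfe2l2, Txnrd1, Hmox1, 16.1% of all genes), 3 after normexp plus median centring (Nfe2l2, Gclc, Hmox1, 36.2%), 2 with an intensity trend (Txnrd1, Hmox1, 19.0%), 1 without moderation (Txnrd1, 15.5%), and 0 to 3 with 1 replicate left out, 3 without replicate 1 (17.9%) and 1 without replicate 4 (18.8%). Normexp with median centring raised the median of the members to 0.22 and that of the genes measured as fully from 0.03 to 0.18, and gave 1 member an adjusted p under 0.05 (Nfe2l2, 0.60, adjusted p = 0.0473, against 0.252 to 0.653 otherwise). For the 70 pathway genes, 7 with an unadjusted p under 0.05 became 11 after normexp plus loess, 37 after normexp plus median centring (37 higher, beside 31.0% of the genes measured as fully, and 12 past adjustment, Bach1 and Nqo2 among them, beside 1545 of all 25694 genes) and 2 to 8 with 1 replicate left out, 2 without replicate 3 and 3 without replicate 2. Signs turned with normexp and median centring for Keap1 (0.20), Gclm (0.047), Slc7a11 (-0.10), Txnrd1 (0.050) and Tkt (0.20), with normexp and loess for Gclc (-0.048) and Srxn1 (-0.026), and with centring of the deposited ratios for Gclc (-0.013). With 1 replicate left out, Gclc ranged from -0.033 to 0.050, Gclm from -0.15 to 0.028, Srxn1 from -0.12 to 0.15 and Nfe2l3 from -0.10 to 2.11. The cause was not tested. No paired analysis was possible because the labels hold 1 group of arrays, none sharing its replicate numbers, beyond the pairing of DEP and control that each ratio already holds.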
